A study of Mus musculus with 6 samples.

Results

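A set of 9 genes that control how the liver makes and burns glucose was compared between livers of fasted old mice with and without *Sirt7*. They were picked by name, as control points of gluconeogenesis and glycolysis, with earlier results of these data known. Of 54115 genes in the data, the 9 are *Pcx*, *Pck1*, *Fbp1*, *G6pc*, *Slc37a4*, *Slc2a2*, *Ppargc1a*, *Pklr* and *Pfkfb1*, and all 9 were among the 12524 genes with enough reads to be tested.

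During a fast the liver supplies blood glucose, at first from glycogen and later by gluconeogenesis from lactate, glycerol and amino acids. Gluconeogenesis runs glycolysis backwards except at its irreversible steps, where it uses enzymes of its own: pyruvate carboxylase and PEPCK go around pyruvate kinase, fructose bisphosphatase opposes phosphofructokinase, and glucose-6-phosphatase releases free glucose. Glucagon and fasting, through cAMP, CREB and FOXO1, are known to raise the genes of glucose production, while insulin and sugar, through SREBP1c and ChREBP, are known to raise those of glycolysis. SIRT7 is a nuclear NAD-dependent deacylase.

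The data are RNA-seq of liver from 3 WT and 3 *Sirt7* KO male mice, all 24 months old and all killed after 16 h without food. The KO line was bred onto C57BL/6J, and WT and KO mice came as littermates from crosses of heterozygotes. No fed, young or female mice were measured, so each value here belongs to the fasted, aged male state, and whether it changes with feeding cannot be seen. The tissue was bulk liver, in which fewer cells of a type and less RNA per cell cannot be told apart.

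Each liver gave 9994860 to 13424776 reads assigned to transcripts. *Sirt7* itself was still counted in the KO livers: its normalized level was 55.2, 45.5 and 47.3 CPM (reads scaled to a common library size) in WT 1, 2 and 3, and 28.6, 41.8 and 40.8 CPM in *Sirt7* KO 1, 2 and 3, lower in all 3 KO livers (log2 fold change -0.41, SE 0.18, adjusted p = 0.42 by edgeR's quasi-likelihood test). Per transcript length it was instead higher in all 3 KO livers, at 34.7, 49.9 and 68.0 TPM against 27.3 to 34.4 TPM in WT. The structure of the knockout allele was not examined here. Hepatocyte markers such as albumin were abundant in every liver, with a summed level of 31330 to 32220 TPM in WT and 30110 to 37710 TPM in KO. Among single livers, leaving out *Sirt7* KO 1 changed the edgeR test most. Across all genes, 1 gene passed an adjusted p under 0.05 with a fold change over 1.5 with all 6 livers (0.00798% of those tested). Without KO 1, 252 passed (1.95% of 12921). The count with all 6 livers also moved with the settings, to 256 with the DESeq2 test and to 633 in edgeR with no filter. In both genotypes the liver numbered 1 differed most from the others of its group. The chi-square per gene between WT 1 and the other WT livers was 65.4 and 76.6, against 26.4 between WT 2 and WT 3, and between KO 1 and the other KO livers it was 60.3 and 48.2, against 17 between KO 2 and KO 3. Without WT 1, 2 genes passed, and without WT 2, WT 3, KO 2 or KO 3, 0 did. The fit without KO 1 was thus the single omission with the most calls. Adjusted p-values from it come from a selected fit, and a gene that passed only there is given as a value. KO 1 also had the lowest summed level of pericentral hepatocyte markers, 4540 TPM against 5890 to 6763 TPM in the other livers, and of hepatocyte markers as a whole. *Cyp2e1* alone made up 3762 of the 4540 TPM. The hepatocyte markers did not move together. In TPM, *Alb*, *Ttr*, *Tat* and *Cps1* were lowest in KO 1. *Serpina1a* lay within the WT range there, and *Apoa1* above it (14490 TPM against 12190 to 13640 TPM). Periportal markers summed to 2810 to 3523 TPM in WT and 2962 to 5366 TPM in KO. The sums for Kupffer cells (17.2 to 55.5 TPM), endothelial cells (26.4 to 49.0 TPM), stellate cells (61.2 to 101 TPM), bile duct cells (31.3 to 49.1 TPM) and lymphocytes (1.66 to 6.52 TPM) overlapped between genotypes, and no marker on these lists was at 0 in all livers. The part of cell makeup in the results was not tested, and each genotype difference of the 9 genes is given with and without KO 1, and without another liver where that one decides the value.

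The known cAMP and sugar control of these genes can be read in part from their promoters, so 4 stretches next to annotated starts are shown. They come from the RefSeq promoters of GRCm38.p6, which reach from 250 bases before each start to 50 after it, and all 9 genes matched. The stretch of *Pck1* is chr2:173152823-173153047 and that of *G6pc* is chr11:101367466-101367589. *Pklr* has a stretch for its upstream start, chr3:89135892-89136141, and another for its downstream start, chr3:89136373-89136571. All are on the plus strand and are printed 5′ to 3′, with matches to the motifs below in capitals.
Pck1: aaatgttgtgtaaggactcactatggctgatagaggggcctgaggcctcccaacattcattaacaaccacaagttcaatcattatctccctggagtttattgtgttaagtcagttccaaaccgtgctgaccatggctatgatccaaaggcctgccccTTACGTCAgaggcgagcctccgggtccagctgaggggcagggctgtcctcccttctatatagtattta
G6pc: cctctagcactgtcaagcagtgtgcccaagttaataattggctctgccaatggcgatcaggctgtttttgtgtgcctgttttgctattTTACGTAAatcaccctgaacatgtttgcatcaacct
Pklr upstream start: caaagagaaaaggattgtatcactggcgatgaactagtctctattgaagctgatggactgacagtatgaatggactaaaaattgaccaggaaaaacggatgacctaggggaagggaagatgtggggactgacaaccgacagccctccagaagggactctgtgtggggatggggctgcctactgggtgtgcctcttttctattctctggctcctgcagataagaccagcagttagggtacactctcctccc
Pklr downstream start: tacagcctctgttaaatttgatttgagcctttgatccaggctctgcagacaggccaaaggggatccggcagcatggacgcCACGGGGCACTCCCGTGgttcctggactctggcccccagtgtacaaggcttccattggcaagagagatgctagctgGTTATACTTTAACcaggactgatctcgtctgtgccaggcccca
In *Pck1* and *G6pc* the capitals are a match to TNACGTNA, a relaxed form of the cAMP response element that CREB binds. The match in *Pck1* (TTACGTCA) lies 93 bases before the RefSeq start, and the one in *G6pc* (TTACGTAA) lies 162 bases before it. Among all 32851 promoters of 300 bases, 4.49% hold this motif on either strand. The cAMP control of these genes was known beforehand, so the matches are a description and no test. In the downstream promoter of *Pklr* the capitals are, first, CACGGG and CCCGTG set 5 bases apart, the carbohydrate response element known from this gene, and second, GTTA and TTAAC set 4 bases apart, a form of the site of the liver factor HNF1. The HNF1 form is in 0.189% of promoters. The first pattern was written down from knowledge of this very promoter, so its absence elsewhere says nothing. The E-box CACGTG, in 7.15% of promoters, was present in an upstream promoter of *Pcx*, and the forkhead form TGTTTAC, in 3.65%, was in none of the promoters of the 9 genes. Only these exact 7 letters were searched, and only within the 300 bases, so the search cannot say whether other forkhead sites are present. A match is a string of letters and was not tested as a binding site here.

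Levels of different genes were compared per transcript length, in TPM over all 6 livers. *Pck1* (1220 TPM ± 309, SD, n = 6) and *Fbp1* (1180 TPM ± 150) were the most abundant of the 9, and their ranges overlapped, with *Pck1* above *Fbp1* in 4 of 6 livers. *Slc37a4* (163 TPM ± 35.4) and *Pcx* (116 TPM ± 13.5) followed, with overlapping ranges but *Slc37a4* above *Pcx* in 6 of 6 livers. Next came *Slc2a2* (73.7 TPM ± 17.5) and *G6pc* (67.5 TPM ± 28.8), which did not differ beyond their spread with *Slc2a2* above in 3 of 6 livers. Most of the *Slc2a2* sum was assigned to a decay-annotated and a retained-intron form. The coding *Slc2a2*-201 was at 7.16 to 13.4 TPM, below the only *G6pc* transcript (36.0 to 106 TPM) in every liver. The glycolytic genes were low, with *Pklr* at 15.0 TPM ± 7.83 and *Pfkfb1* at 8.69 TPM ± 1.96, and the coactivator *Ppargc1a* was the lowest of the 9 at 2.42 TPM ± 0.86. In TPM, *Pck1* exceeded *Pklr* by 141, 118 and 63.7 times in WT 1, 2 and 3. In KO 1, 2 and 3 it did so by 117, 48.6 and 79.1 times. The excess of the gluconeogenic over the glycolytic enzyme was thus present in every liver, and in TPM it overlapped between genotypes. The *Pklr* sums include a transcript of 338 bases, which gave 12.36 of 27.96 TPM in KO 2 from 12.4 reads. In WT 3 it gave 5.45 of 20.22 TPM from 7.8 reads. In CPM the ratio of *Pck1* to *Pklr* was lower in each KO liver than in any WT liver, so the overlap depended on the unit. The ratio was not tested between genotypes.

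None of the 9 genes passed the test between genotypes. With all 6 livers, 0 of 9 had an adjusted p under 0.05 with a fold change over 1.5. At an unadjusted p under 0.05, 1 of 9 passed, against 11.3% of all tested genes, and it was higher in KO (6.54% of all tested genes were higher at that p and 4.78% lower). In all 9 the WT and KO ranges overlapped, while 16.8% of tested genes had ranges that did not overlap (8.09% lower and 8.74% higher in KO). Of the 9, 5 were higher and 4 lower, with a median log2 fold change of 0.01 in KO relative to WT, against -0.0061 over all tested genes. Without KO 1, 2 of 9 had an unadjusted p under 0.05, against 17.1% of all tested genes, and again 0 of 9 passed the adjusted test.

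**Figure D1:**
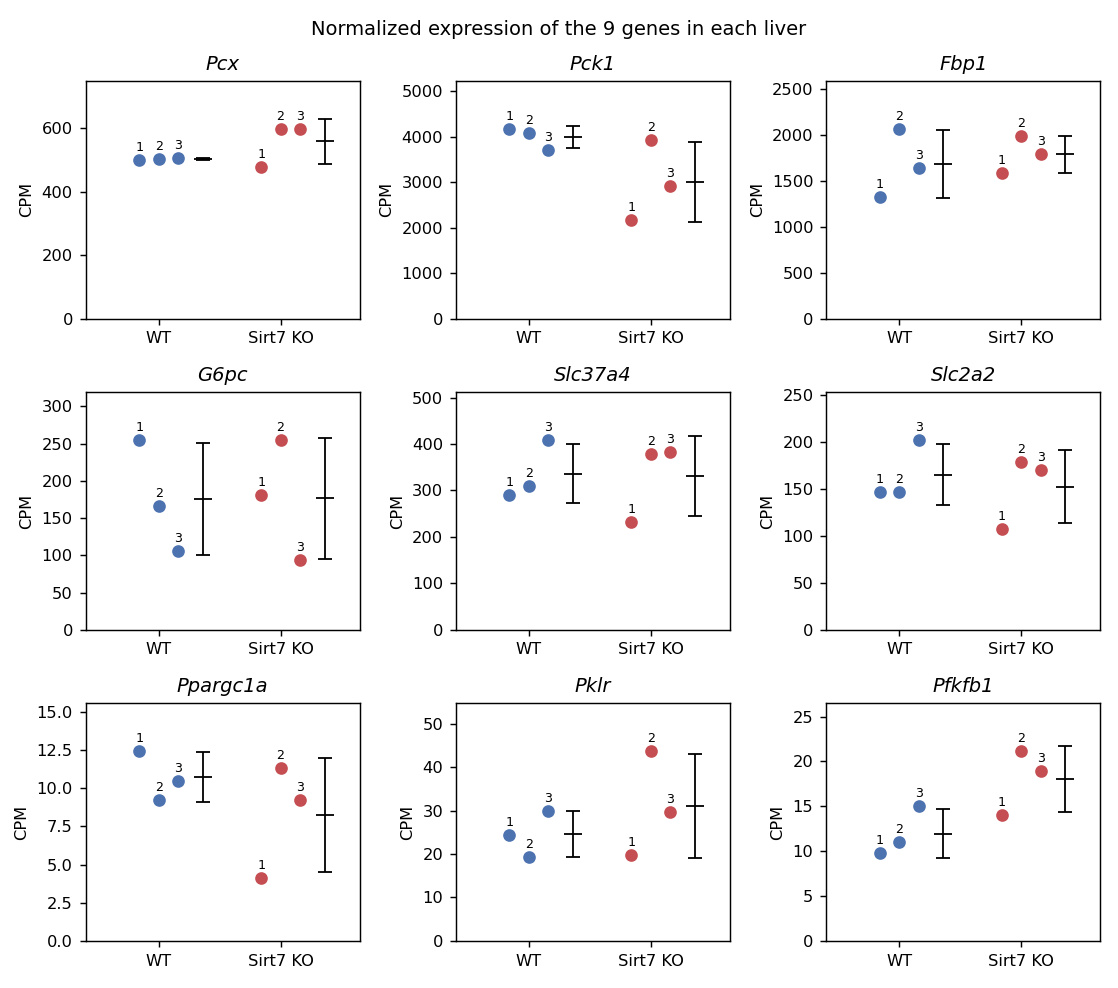
Normalized expression (CPM, linear axes from 0) of the 9 genes in the 3 WT (blue) and 3 *Sirt7* KO (red) livers, with the replicate number above each point and the mean ± SD (n = 3) as a bar beside the points. The genotypes overlap in every panel, and KO 1 is the lowest liver for 5 genes.

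Gluconeogenesis from pyruvate starts in mitochondria with pyruvate carboxylase, encoded by *Pcx* (chr19:4510472-4621752, plus strand, ENSMUSG00000024892.17). It was the steadiest of the 9 genes, at 499.7, 504.0 and 506.5 CPM in WT and 478.2, 598.8 and 599.6 CPM in KO. The WT livers lay within a narrow band, with one KO liver below it and the others above it. The means were 503 CPM ± 3.48 and 559 CPM ± 69.9 (SD, n = 3 each), a log2 fold change of 0.15 (SE 0.15, 95% interval -0.19 to 0.49, adjusted p = 0.76 by edgeR's quasi-likelihood test). Without KO 1 the log2 fold change was 0.25 (adjusted p = 0.38 by the same test).

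*Pck1* (chr2:173153048-173159273, plus strand, ENSMUSG00000027513.11) encodes cytosolic PEPCK, which turns oxaloacetate into phosphoenolpyruvate and is a classic fasting-induced gene. Its level was 4181, 4073 and 3718 CPM in WT and 2166, 3925 and 2908 CPM in KO. KO 2 lay within the WT range, and KO 1 and KO 3 lay below it. The mean was 3991 CPM ± 242 in WT and 3000 CPM ± 883 in KO, 0.75-fold (log2 fold change -0.41, SE 0.23, 95% interval -0.93 to 0.11, adjusted p = 0.55 by edgeR's quasi-likelihood test; exact permutation p = 0.2, where 0.1 is the smallest that 3 against 3 allows). Without KO 1 the log2 fold change was -0.22 (SE 0.18, adjusted p = 0.58 by edgeR), and without KO 2 it was -0.65 (adjusted p = 0.55). The TPM of *Pck1* divided by that of *Pcx*, its partner in the route around pyruvate kinase, was 13.5, 12.7 and 11.5 in WT and 7.29, 10.5 and 7.78 in KO. This ratio was examined after its parts were seen and was not tested. It was lower in each KO liver than in any WT liver.

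*Fbp1* (chr13:62864753-62888282, minus strand, ENSMUSG00000069805.10) encodes fructose bisphosphatase, which opposes phosphofructokinase. Its level was 1326, 2067 and 1642 CPM in WT and 1587, 1982 and 1789 CPM in KO, so all KO livers lay within the WT range. The log2 fold change was 0.09 (SE 0.20, 95% interval -0.36 to 0.54, adjusted p = 0.91 by edgeR's quasi-likelihood test) and 0.17 without KO 1. Its sign turned without WT 1, to -0.06.

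*G6pc* (chr11:101367561-101377903, plus strand, ENSMUSG00000078650.2) encodes the catalytic subunit of glucose-6-phosphatase, which releases free glucose as the last step of both gluconeogenesis and glycogen breakdown. Its level was 254.3, 166.0 and 105.1 CPM in WT and 181.2, 255.2 and 93.4 CPM in KO. Each genotype held 1 high, 1 middle and 1 low liver, and the highest liver exceeded the lowest 2.73 times. The means were 175 CPM ± 75.0 and 177 CPM ± 81.0, a log2 fold change of 0.01 with a wide interval of -0.86 to 0.89 (SE 0.39, adjusted p = 0.99 by edgeR's quasi-likelihood test). On a linear scale the interval runs from 0.55- to 1.85-fold. The log2 fold change was -0.005 without KO 1, and it ran from -0.35 without KO 2 to 0.38 without WT 1. The pancreatic paralog *G6pc2* had 0 reads in every liver.

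Glucose-6-phosphate reaches the phosphatase in the endoplasmic reticulum through the transporter encoded by *Slc37a4* (chr9:44396852-44402968, plus strand, ENSMUSG00000032114.9). Its level was 289.8, 309.9 and 409.2 CPM in WT and 232.5, 379.3 and 382.2 CPM in KO. KO 1 was the lowest of the 6 livers and the other KO livers lay within the WT range (log2 fold change -0.02, SE 0.23, 95% interval -0.53 to 0.49, adjusted p = 0.98 by edgeR's quasi-likelihood test). Its sign turned without KO 1, to 0.18, and without WT 3, to 0.15. The transporter and the phosphatase act as one system, yet their TPM ratio, *G6pc* over *Slc37a4*, was 0.70, 0.40 and 0.21 in WT and 0.63, 0.52 and 0.19 in KO, a similar span within both genotypes.

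*Slc2a2* (chr3:28697903-28731359, plus strand, ENSMUSG00000027690.13) encodes GLUT2, the facilitative glucose transporter of the hepatocyte surface. Its level was 146.1, 146.7 and 202.2 CPM in WT and 107.4, 178.7 and 169.7 CPM in KO, with KO 1 again the lowest and the others within the WT range. The log2 fold change was -0.12 (SE 0.22, 95% interval -0.62 to 0.38, adjusted p = 0.89 by edgeR's quasi-likelihood test), 0.08 without KO 1 and 0.06 without WT 3. For both glucose-related transporters, *Slc2a2* and *Slc37a4*, the lowest liver was KO 1 and the highest was WT 3.

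*Ppargc1a* (chr5:51454250-51567726, minus strand, ENSMUSG00000029167.13) encodes PGC-1α, a coactivator that fasting signals raise in liver and that drives gluconeogenic genes. It was counted with 147, 102 and 142 reads in WT and 45, 107 and 96 reads in KO, or 12.4, 9.25 and 10.5 CPM against 4.12, 11.3 and 9.25 CPM. KO 1 was far below the other livers, which overlapped. The log2 fold change was -0.39 (SE 0.34, 95% interval -1.16 to 0.39, adjusted p = 0.72 by edgeR's quasi-likelihood test), -0.06 without KO 1 and -0.68 without KO 2.

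On the glycolytic side, *Pklr* (chr3:89136142-89146784, plus strand, ENSMUSG00000041237.12) encodes pyruvate kinase of liver and red cells, which insulin and sugar are known to raise. It had 214 to 405 reads in WT and 217 to 413 in KO, at 24.5, 19.4 and 30.0 CPM in WT and 19.9, 43.8 and 29.6 CPM in KO. KO 2 was the highest liver, and the others of both genotypes were interleaved. The mean was 24.6 CPM ± 5.27 in WT and 31.1 CPM ± 12.0 in KO (log2 fold change 0.33, SE 0.28, 95% interval -0.30 to 0.97, adjusted p = 0.71 by edgeR's quasi-likelihood test). Without KO 1 the log2 fold change was 0.57 (95% interval 0.05 to 1.10, unadjusted p = 0.0359 and adjusted p = 0.26 by edgeR), while without KO 2 it was 0.005, so the difference rested on KO 2. Of the words of 31 bases in *Pklr* transcripts, 21.1% are also found in *Hcn3*, a neighbouring gene with 0 to 10 reads per liver.

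*Pfkfb1* (chrX:150588229-150643878, plus strand, ENSMUSG00000025271.13) encodes the liver form of the bifunctional enzyme that makes and removes the small molecule switching phosphofructokinase on and fructose bisphosphatase off. It is the gene that differed most of the 9. Its reads numbered 116, 121 and 203 in WT and 153, 200 and 197 in KO, or 9.82, 11.0 and 15.0 CPM in WT and 14.0, 21.2 and 19.0 CPM in KO. Only WT 3 reached into the KO range, just above KO 1. The mean was 11.9 CPM ± 2.73 in WT and 18.1 CPM ± 3.68 in KO, 1.51-fold (log2 fold change 0.59, SE 0.23, 95% interval 0.07 to 1.12). Its unadjusted p was 0.0305 but its adjusted p was 0.37 by edgeR's quasi-likelihood test, and the exact permutation p was 0.2. Without KO 1 the log2 fold change was 0.75 (95% interval 0.24 to 1.26, adjusted p = 0.14 by edgeR). On leaving out single livers the log2 fold change ran from 0.46 to 0.80, and its unadjusted p was over 0.05 without WT 1, WT 2, KO 2 or KO 3. The difference did not pass the correction over all genes with all livers or without any 1 of them.

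**Figure D2:**
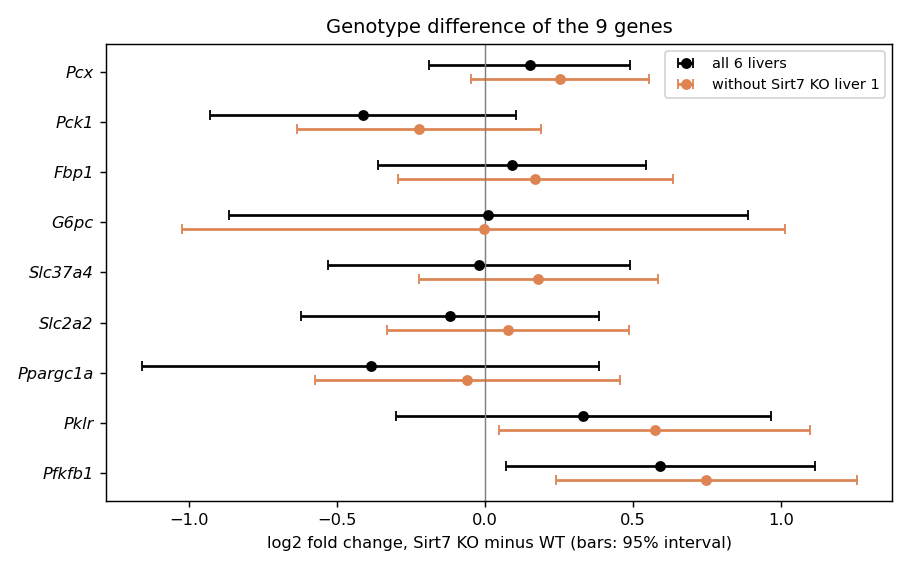
Log2 fold change of the 9 genes in *Sirt7* KO relative to WT livers, with 95% intervals, for all 6 livers (black) and without KO 1 (orange). With all livers only the interval of *Pfkfb1* (0.07 to 1.12) lies above 0, and without KO 1 that of *Pklr* (0.05 to 1.10) does too.

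The livers did not rank alike for the 9 genes. KO 1 was the lowest liver for 5 of 9 genes (*Pcx*, *Pck1*, *Slc37a4*, *Slc2a2* and *Ppargc1a*) and the highest for 0, while KO 2 was the highest for 3 and the lowest for 0. Relative to the mean of the 6 livers on the log2(CPM + 0.5) scale, KO 1 was at -0.65 for *Pck1*, -0.49 for *Slc37a4*, -0.53 for *Slc2a2* and -1.04 for *Ppargc1a*, but at 0.15 for *G6pc* and -0.05 for *Pfkfb1*. KO 2 was at 0.64 for *G6pc*, 0.70 for *Pklr* and 0.53 for *Pfkfb1*. The gluconeogenic and glycolytic genes were thus both at high levels in the same liver, KO 2. *G6pc* was low in WT 3 (-0.64) and in KO 3 (-0.81), in which *Slc37a4* was above the mean (0.32 and 0.22).

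**Figure D3:**
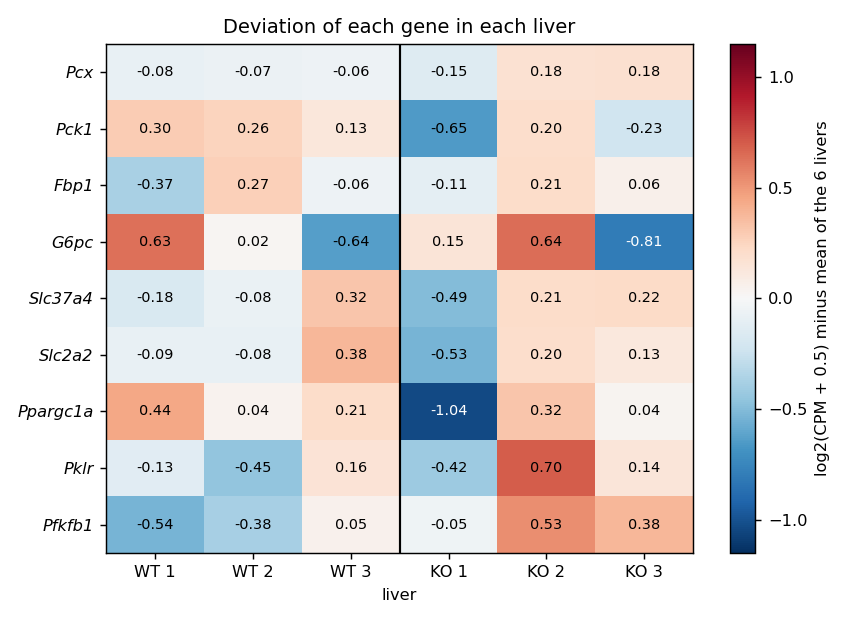
Deviation of each gene in each liver from its mean over the 6 livers, in log2(CPM + 0.5), from blue (lower) to red (higher), with the value in each cell. KO 1 is lowest for *Ppargc1a* (-1.04) and *Pck1* (-0.65), and KO 2 is highest for *Pklr* (0.70).

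Several of the genes have more than 1 annotated start or splice form, and Salmon splits reads that match several forms by estimation. *G6pc* had 1 transcript, *Pck1* and *Fbp1* were assigned almost wholly to their full-length coding transcript, and *Slc37a4*-201 held 90.9 to 95.1% of its reads. For *Pklr*, the upstream transcript *Pklr*-201 (574 residues, the form known from red cells) was assigned 55.5, 63.6 and 91.6% of the reads in WT and 78.0, 93.0 and 73.5% in KO. The downstream transcript *Pklr*-202 (543 residues, the form known from liver, from the promoter with the sugar and HNF1 motifs in capitals) was assigned 43.3, 32.8 and 4.32% in WT and 22.0, 3.5 and 25.2% in KO. By this estimate the red-cell form was assigned the larger share in every liver. The smallest shares of the liver form, in WT 3 and KO 2, rest on 17.5 and 14.5 estimated reads. These were the livers with the most *Pklr*, but KO 3 had nearly as much as WT 3 (29.6 and 30.0 CPM) with 25.2% of the liver form. Both transcripts have 11 exons and share all but the first exon and the annotated end, so the split between them is an estimate.

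The upstream start of *Pcx* was assigned 73.5, 71.9 and 88.6% of its reads in WT and 83.5, 93.2 and 78.3% in KO, with most of the rest at the downstream start of *Pcx*-202. For *Ppargc1a*, *Ppargc1a*-201, annotated as a target of nonsense-mediated decay, held 67.0, 58.4 and 65.2% in WT and 60.3, 71.7 and 53.9% in KO, and the full-length coding *Ppargc1a*-203 (797 residues) held 33.0, 41.6 and 34.8% against 39.7, 21.1 and 14.4%. *Slc2a2* was split between a decay-annotated transcript (34.1 to 51.9%), the coding *Slc2a2*-201 (34.0 to 45.8%) and a retained-intron form (14.2 to 24.1%). For *Pfkfb1*, *Pfkfb1*-202 (471 residues) held 87.1, 82.8 and 78.6% in WT and 92.4, 98.4 and 93.8% in KO, a separation that was seen after the values. It was not tested, since shares were tested only in genes with 2 or more transcripts at 5% or more of the reads, and *Pfkfb1* has 1. *Pfkfb1*-202 was assigned 101, 100 and 160 reads in WT and 141, 197 and 185 in KO. In WT 3, the lowest share, 32.1 reads went to *Pfkfb1*-201, which had 0 in every other liver. Among the 11 transcripts tested, of *Pcx*, *Pklr*, *Ppargc1a* and *Slc2a2*, 0 passed, with a smallest exact two-sided permutation p of 0.3 and adjusted p-values of 0.88 or more.

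**Figure D4:**
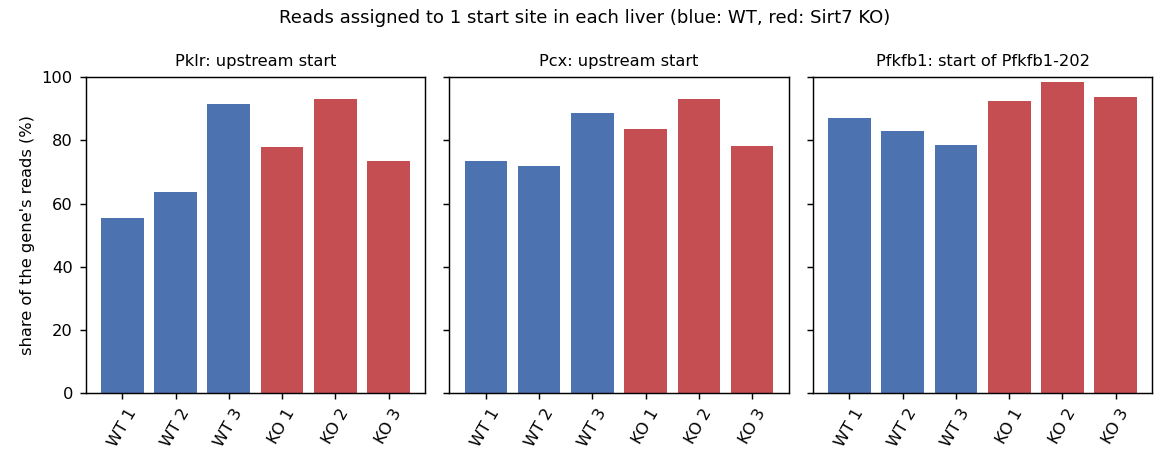
Share of a gene's reads (%, from 0 to 100) assigned to the upstream start of *Pklr*, the upstream start of *Pcx*, and *Pfkfb1*-202, in each WT (blue) and *Sirt7* KO (red) liver, 1 bar per liver. For *Pklr* it ranges from 55.5 to 93.0% with the genotypes overlapping, and for *Pfkfb1*-202 the KO livers (92.4 to 98.4%) lie above WT (78.6 to 87.1%). The separation of *Pfkfb1*-202 was seen after the values and was not tested.

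The genes whose levels over the 6 livers were most like those of *Pck1*, out of 6672 compared, were *Akap8* (Pearson r = 0.997 of log2 levels), *Clip1* (0.996) and *Dedd2* (0.991). For *G6pc* they were *Prrc1* (0.987), *Gm17132* (0.984) and *Dag1* (0.967), and for *Pklr* they were *Fbxo7* (0.991), *2510002D24Rik* (0.988) and *C87436* (0.985). Of the 6672 genes, 68, 14 and 54 had r over 0.9 with *Pck1*, *G6pc* and *Pklr*. The named genes are the highest of that many over only 6 livers, and no r was tested. The points share their libraries and normalization.

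The rest of the pathway was read from 4 lists, and with all 6 livers 0 genes in any of them passed the adjusted test. Their counts at an unadjusted p under 0.05 stand against 11.3% of all tested genes, 6.54% higher and 4.78% lower in KO. Of the other enzymes of glycolysis and gluconeogenesis, 22 of 29 were tested, with 15 higher and 7 lower in KO (2 and 0 at an unadjusted p under 0.05) and a median log2 fold change of 0.04. Their smallest p belonged to *Aldoc*, a minor aldolase in liver, at 4.15, 6.62 and 7.62 CPM in WT and 10.2, 22.8 and 23.1 CPM in KO. The groups did not overlap (log2 fold change 1.60, SE 0.35, adjusted p = 0.17 by edgeR's quasi-likelihood test), and without KO 1 it passed (1.90, adjusted p = 0.0205). *Aldoa*, another aldolase, was lower in all KO livers, at 112, 88.4 and 128 CPM against 139 to 142 CPM (adjusted p = 0.46). *Tpi1*, triose phosphate isomerase, had 62, 65 and 388 reads in WT and 1411, 277 and 234 in KO (log2 fold change 2.17, SE 0.80, adjusted p = 0.35). Without KO 1 the log2 fold change was 0.95. Its reads were spread unevenly over its annotated transcripts, with 0, 0 and 377 reads in WT and 1290, 121 and 0 in KO assigned to 1 of its coding transcripts, and the value of the gene is uncertain.

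The muscle-type pyruvate kinase *Pkm* was low, at 8.44 to 11.9 CPM in WT and 8.80 to 14.1 CPM in KO (adjusted p = 0.82 by edgeR's quasi-likelihood test). *Gapdh*, shared by both directions of the pathway, was at 632 to 744 CPM in WT and 669 to 780 CPM in KO (log2 fold change 0.04, adjusted p = 0.95), with 28.1% of its words found in other genes.

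Of the genes that supply carbon to gluconeogenesis (lactate, pyruvate, glycerol and amino acid entry), 27 of 30 were tested, with 15 higher and 12 lower (1 and 3 at an unadjusted p under 0.05) and a median log2 fold change of 0.05. *Gpd2*, the mitochondrial glycerol phosphate dehydrogenase, was at 29.6, 36.0 and 35.9 CPM in WT and 24.5, 13.4 and 17.8 CPM in KO (log2 fold change -0.86, SE 0.22, adjusted p = 0.20 by edgeR's quasi-likelihood test). *Mpc2*, a subunit of the carrier that brings pyruvate to *Pcx*, was at 397, 359 and 344 CPM in WT and 306, 197 and 212 CPM in KO (log2 fold change -0.62, SE 0.19, adjusted p = 0.26). In neither gene did the groups overlap, and both passed without KO 1, at -1.11 (adjusted p = 0.0307) and -0.84 (adjusted p = 0.0319). *Got1*, cytosolic aspartate aminotransferase, was at 149, 99.3 and 96.7 CPM in WT and 105, 368 and 201 CPM in KO (0.96, SE 0.39, adjusted p = 0.39). *Pdk4*, which spares pyruvate from oxidation in fasting, was low and scattered, at 2.74 to 6.10 CPM in WT and 0.87 to 10.5 CPM in KO (log2 fold change 0.34, adjusted p = 0.90, and -0.81 without KO 1).

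Of the genes of glycogen and fructose metabolism, 20 of 20 were tested, with 11 higher and 9 lower (3 and 2 at an unadjusted p under 0.05) and a median log2 fold change of 0.04. *Ppp1r3c*, which targets phosphatase to glycogen, was at 20.5, 15.2 and 14.4 CPM in WT and 24.7, 24.3 and 26.1 CPM in KO (0.58, SE 0.17, adjusted p = 0.25 by edgeR's quasi-likelihood test). Its relative *Ppp1r3g*, a fasting-induced glycogen-targeting subunit, had 50, 33 and 20 reads in WT and 0, 8 and 0 in KO (adjusted p = 0.26). Lysosomal glucosidase *Gaa* was at 134, 152 and 141 CPM in WT and 106, 101 and 117 CPM in KO (-0.40, SE 0.14, adjusted p = 0.32). The groups of these genes did not overlap, and in each the difference missed the adjusted threshold.

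Of the hormonal and transcriptional regulators, 34 of 35 were tested, with 13 higher and 21 lower (2 and 6 at an unadjusted p under 0.05) and a median log2 fold change of -0.15. *Irs2*, an insulin receptor substrate, was at 33.4, 27.5 and 16.2 CPM in WT and 15.2, 8.80 and 7.03 CPM in KO, without overlap (-1.31, SE 0.34, adjusted p = 0.20 by edgeR's quasi-likelihood test). *Cebpb*, a factor known to bind the *Pck1* promoter, was at 56.9, 68.1 and 28.1 CPM in WT and 34.1, 11.1 and 5.01 CPM in KO (-1.60, SE 0.59, adjusted p = 0.36). Of its words of 31 bases, 19.2% are also found in *Tmem189*, which had 278, 273 and 303 reads in WT and 293, 176 and 174 in KO, so some of the reads could belong to either gene. *Nr0b2*, the repressor SHP, was at 71.0, 41.6 and 55.6 CPM in WT and 89.5, 109 and 77.7 CPM in KO, without overlap (0.72, SE 0.22, adjusted p = 0.25). Without KO 1, *Irs2* (-1.70, adjusted p = 0.0420) and *Cebpb* (-2.66, adjusted p = 0.0304) passed.

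*Foxo1*, through which insulin restrains *G6pc* and *Pck1*, was at 37.3, 35.7 and 50.8 CPM in WT and 33.1, 31.8 and 29.1 CPM in KO (log2 fold change -0.40, SE 0.17, adjusted p = 0.42 by edgeR's quasi-likelihood test). The glucagon receptor gene *Gcgr* was at 301, 357 and 306 CPM in WT and 256, 283 and 282 CPM in KO (-0.23, adjusted p = 0.59). For both the groups did not overlap. *Mlxipl*, which encodes ChREBP, the factor of the sugar motif in *Pklr*, was at 198 to 231 CPM in WT and 176 to 291 CPM in KO (0.13, adjusted p = 0.86). Without KO 1, the calls among the lists numbered 1 of 22, 2 of 27, 1 of 20 and 3 of 35 in the order above, and 0 of 9 among the control points. Over all genes the share was 1.95%, and at these list sizes nothing is read from the difference between lists.

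**Figure D5:**
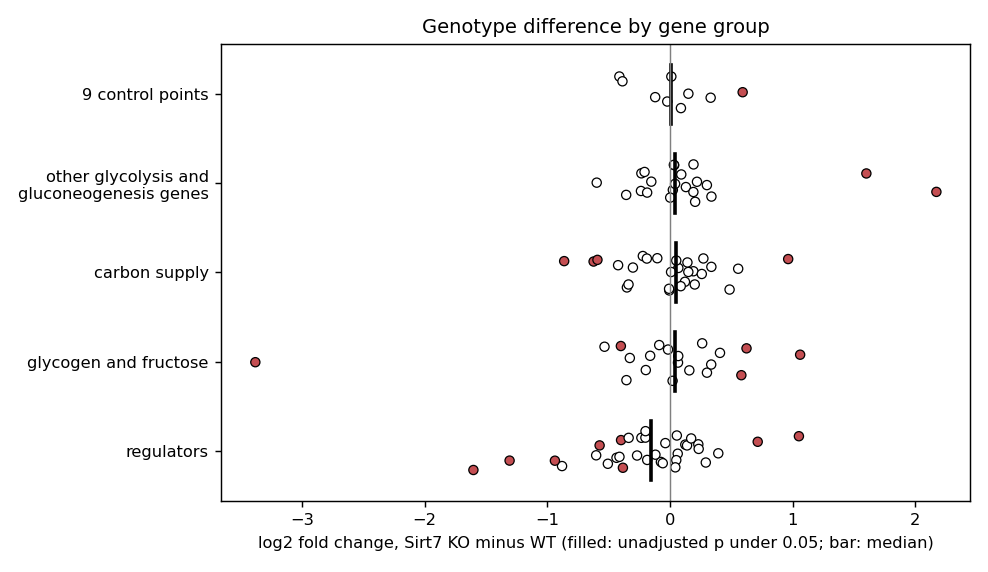
Log2 fold change in *Sirt7* KO relative to WT of the 9 control points and of the tested genes of the 4 lists, 1 point per gene, with a vertical bar at the median and filled points for an unadjusted p under 0.05. The medians lie between -0.15 (regulators) and 0.05 (carbon supply), and 1 of the 9 control points, *Pfkfb1*, is filled.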

How the data were processed

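RNA of 3 WT and 3 *Sirt7* KO livers was turned into cDNA with a SMART-seq kit that starts from little RNA, and Nextera XT libraries were sequenced as single-end reads. The authors used Trim Galore 0.6.5 for trimming and Salmon 1.2.1 for quantification on the GRCm38 transcriptome, whose annotation release is not given in the sources used here. For each liver and transcript they deposited an estimated count, a fractional number of reads without normalization, and a TPM value, scaled by Salmon to effective length and to a fixed total. Strandedness and molecular identifiers are not given in the sources used here, so depth covers counting error only.

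Estimated counts were summed to 54115 genes by GENCODE M21 and rounded. The files list 140992 transcripts, of which 139172 matched with the same version, 619 matched with another version and 1201 (0.303 to 0.492% of reads) were dropped for want of a gene. TPM was summed per gene to compare genes. The genotype test was edgeR 4.0.16 under R 4.3.3 (quasi-likelihood, TMM factors), run on all 12524 genes kept by filterByExpr at a minimum count of 10, with Benjamini-Hochberg adjustment over all of them. Genes with an adjusted p under 0.05 and a fold change over 1.5 were called. Values without KO 1 come from the same test refitted on the other livers. Single values were compared by exact two-sided permutation, as were the shares of transcripts with at least 5% of a gene's reads where a gene has 2 or more such transcripts. In simulated counts for these 12524 genes the edgeR test recovered 28% of 2-fold and 83% of 4-fold changes. The biological coefficient of variation was 26.4%. Livers of 1 genotype differed beyond sampling noise (chi-square 17 or more per gene), so each counted as 1 sample.

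As alternatives, counts were scaled by RLE, upper quartile or library totals, filtered less or more, given average length offsets, tested with DESeq2 1.42.0, blocked by replicate number, or refitted without each liver. Genes named with values are the 9, a further 8 of the pathway whatever their values (1 of them is not reported here), the 3 with the smallest p in each list, and the 3 most like *Pck1*, *G6pc* and *Pklr* among genes with at least 10 CPM. The 9 genes, the lists and the alternatives were chosen with earlier results of these data known. Motifs and shared words of 31 bases were searched with Python 3.11.15.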

Additional observations from a re-analysis of the deposited data

How the results depend on the processing

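For the 9 control points, 0 were called under every alternative run. The directions of *Pcx* (0.04 to 0.25), *Pck1* (-0.65 to -0.22), *Ppargc1a* (-0.68 to -0.06), *Pklr* (0.005 to 0.57) and *Pfkfb1* (0.45 to 0.80) held under all 15 alternatives, with unadjusted p under 0.05 in 2 for *Pck1*, 1 for *Pklr* and 8 for *Pfkfb1*, whose adjusted p ranged from 0.14 to 0.77. Values near 0 changed sign: *G6pc* with total counts (-0.12), upper quartile (-0.0016), the replicate block (-0.015) and on leaving out single livers (-0.35 to 0.38), *Fbp1* with total counts (-0.0074) and on leaving out single livers (-0.0599 to 0.27), and *Slc37a4* and *Slc2a2* without WT 3 or without KO 1 (ranges on leaving out single livers -0.14 to 0.18 and -0.25 to 0.0792). Total-count scaling moved the median of all genes to -0.11. With length offsets, in edgeR or in DESeq2, 0 of 9 had an unadjusted p under 0.05, and on leaving out single livers 0 to 2 did.

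The number of genes called among all tested, 1, depended on the processing. In edgeR it was 2 with total counts, 2 with length offsets, 633 with no filter and 41 with the replicate number as a block. With DESeq2 it was 256, or 245 with length offsets. The DESeq2 runs also kept every gene with any read, so tool and filter changed together. On leaving out single livers the number was 0 to 252, 252 being without KO 1. Genes with an unadjusted p under 0.05, 1418 with all livers, numbered 2362 with no filter and 994 to 2208 on leaving out single livers. Those in the lists ranged on leaving out single livers from 1 to 3 for glycolysis and gluconeogenesis, 2 to 10 for carbon supply, 2 to 7 for glycogen and fructose, and 3 to 13 for regulators. The causes were not tested. Deviations from the genotype mean correlated weakly between WT and KO livers of the same number (0.0652, 0.08 and -0.0437). For livers of different numbers the correlations were -0.103 to 0.0487. Whether the numbers mark a shared batch was not tested.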

Other observations

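Some genes of the lists outside the naming rule had an unadjusted p under 0.05, and they are given here as values, chosen after these were seen. *Srebf1*, the gene of the insulin-responsive factor SREBP1, was at 35.4, 57.0 and 92.9 CPM in WT and 67.8, 134 and 183 CPM in *Sirt7* KO livers (log2 fold change 1.05, SE 0.40, adjusted p = 0.36 by edgeR's quasi-likelihood test). *Slc2a5*, a fructose transporter, was at 3.13, 8.62 and 11.2 CPM in WT and 12.2, 20.9 and 15.0 CPM in KO, without overlap (1.06, SE 0.41, adjusted p = 0.37). *Pygl*, liver glycogen phosphorylase, was at 194, 216 and 261 CPM in WT and 214, 412 and 407 CPM in KO (0.62, SE 0.25, adjusted p = 0.39), and it was called without KO 1 (0.88, adjusted p = 0.0391). *Srebf1* and *Pygl* overlapped between genotypes.

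*Ppara*, the fatty acid receptor of fasting, was at 100, 163 and 150 CPM in WT and 117, 83.0 and 77.4 CPM in KO (-0.57, SE 0.23, adjusted p = 0.38 by edgeR's quasi-likelihood test). *Gk*, glycerol kinase, was at 47.8, 83.9 and 65.4 CPM in WT and 56.7, 35.5 and 38.6 CPM in KO (-0.59, SE 0.24, adjusted p = 0.40). *Crtc2*, a CREB coactivator of gluconeogenic genes, was at 37.1, 30.3 and 34.5 CPM in WT and 27.8, 24.6 and 25.8 CPM in KO, without overlap (-0.38, SE 0.14, adjusted p = 0.36). *Txnip*, a sugar-induced gene, was at 35.5, 64.4 and 70.0 CPM in WT and 48.1, 18.2 and 22.2 CPM in KO (-0.94, SE 0.38, adjusted p = 0.39), and it was called without KO 1 (-1.48, adjusted p = 0.0474).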
